A study of Homo sapiens with 2 samples.

Results

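The 9 genes described here present peptides on MHC class I or tie into the checkpoint ligand PD-L1: the heavy chains HLA-B, HLA-C and HLA-E, the light chain B2M, the peptide transporter subunits TAP1 and TAP2, tapasin (TAPBP), CMTM6 and CD274, which encodes PD-L1. They were chosen by name with earlier results of these data known, since CMTM6 had stood out for its low ratio, so their values are descriptions and carry no test. All 9 had 1 row each among the 57820 gene IDs listed. Of the 9, 4 had reads (B2M, CMTM6, HLA-C and HLA-B) and 5 were listed at 0 in both libraries (HLA-E, TAP1, TAP2, TAPBP and CD274).

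The RNA came from HEK293T, an established human embryonic kidney cell line. Its mRNA was sequenced in 1 library after an siRNA that depletes SRα, the alpha subunit of the signal recognition particle receptor, and in 1 library after a control siRNA. Gene reads numbered 3896721 after SRα siRNA and 2445200 after control siRNA. With 1 library per group there was no replicate and no test, and every interval below covers counting error only. Fewer cells making a message and less of it per cell cannot be told apart in such bulk RNA.

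The depleted gene, SRPRA, had 449 reads, or 117 CPM (read count scaled to library size by TMM factors), in the SRα siRNA library, against 507 reads, or 205 CPM, in the control siRNA library. Its ratio was 0.570, a log2 ratio of -0.81 (95% counting interval -0.998 to -0.63), so the library labelled as depleted held less of the targeted message. HEK293T has no single defining marker. VIM and NEFM, often abundant in this line, had 386 and 137 CPM in the SRα siRNA library, against 311 and 110 CPM in the control siRNA library. PAX2, a kidney lineage factor, had only 7 reads and 1 read in the same order. The leukocyte genes PTPRC, CD3E, CD14, ITGAX, CD74 and CIITA were at 0 in both libraries, and HLA-DRA had 1 read in each.

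Class I molecules are displayed by nearly all nucleated cells. A heavy chain and B2M, both made with signal sequences, meet in the endoplasmic reticulum. TAP pumps cytosolic peptides into that compartment, and tapasin, calreticulin and the disulfide isomerase PDIA3 hold the empty molecule until a peptide fits. The filled molecule then travels to the surface for inspection by CD8 T cells, while HLA-E is mainly read by receptors of natural killer cells. PD-L1 on the same surface restrains T cells, and CMTM6, a small protein with several membrane-spanning segments, keeps PD-L1 from being degraded. Interferon raises most of these messages together.

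The promoters of the 4 members with reads are shown because the class I genes and B2M are classically regulated together through short promoter boxes. RefSeq promoters of GRCh38.p14, 250 bases before the start site and 50 after it, were given for 8 of the 9 members, HLA-E being the other. Each is written 5′ to 3′ on the gene's own strand, and capitals mark letters matched by any of 4 motifs searched on both strands. The motifs were the ISRE core GAAANNGAAA, the GAS element TTCNNNGAA, the Y box CCAAT and the X2 box core TGACGC. HLA-B lies at chr6:31357130-31357429 (minus strand), HLA-C at chr6:31272043-31272342 (minus), B2M at chr15:44711267-44711566 (plus) and CMTM6 at chr3:32502803-32503102 (minus).
HLA-B: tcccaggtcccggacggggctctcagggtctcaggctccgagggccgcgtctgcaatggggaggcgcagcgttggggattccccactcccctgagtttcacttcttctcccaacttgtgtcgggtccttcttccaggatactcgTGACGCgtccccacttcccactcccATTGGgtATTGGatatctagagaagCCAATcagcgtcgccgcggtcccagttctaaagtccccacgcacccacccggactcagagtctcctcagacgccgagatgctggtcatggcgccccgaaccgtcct
HLA-C: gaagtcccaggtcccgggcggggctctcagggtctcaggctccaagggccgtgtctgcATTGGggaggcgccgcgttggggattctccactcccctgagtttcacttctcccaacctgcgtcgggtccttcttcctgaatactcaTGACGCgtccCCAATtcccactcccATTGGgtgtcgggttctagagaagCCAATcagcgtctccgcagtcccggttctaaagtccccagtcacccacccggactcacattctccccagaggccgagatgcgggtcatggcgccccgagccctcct
B2M: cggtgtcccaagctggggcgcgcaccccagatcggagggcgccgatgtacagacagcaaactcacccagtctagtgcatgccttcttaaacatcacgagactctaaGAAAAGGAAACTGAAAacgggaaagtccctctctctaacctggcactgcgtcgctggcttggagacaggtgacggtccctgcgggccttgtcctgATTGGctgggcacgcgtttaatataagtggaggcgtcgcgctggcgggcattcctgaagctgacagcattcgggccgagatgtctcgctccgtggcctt
CMTM6: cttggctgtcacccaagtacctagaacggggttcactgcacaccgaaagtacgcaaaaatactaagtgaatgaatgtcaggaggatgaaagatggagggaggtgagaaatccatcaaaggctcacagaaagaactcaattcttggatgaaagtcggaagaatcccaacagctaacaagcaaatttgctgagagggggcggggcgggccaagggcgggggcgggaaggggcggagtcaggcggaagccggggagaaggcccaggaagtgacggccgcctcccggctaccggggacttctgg

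HLA-B and HLA-C shared part of their layout. The X2 box core began at -106 in HLA-B and at -105 in HLA-C, counted from the start site, and a Y box began at -56 in both. At the same distance from the X2 box core in both, another Y box, spelled ATTGG, began at -81 in HLA-B and at -80 in HLA-C. Further Y boxes began at -74 in HLA-B and at -192 and -95 in HLA-C. B2M had overlapping ISRE cores from -144 and -138 and a Y box at -49. The CMTM6 window held none of the 4 motifs as spelled, which says only that these letters are not in it. Among members listed at 0, the ISRE core matched in TAP2 at -58, in TAPBP at -20 and -14, in CD274 at -208 and -202, and in the upstream of a pair of TAP1 windows at -134 and -128. Over all 35116 promoters of the table, 3.57% held the ISRE core, 7.66% the GAS element, 34.6% the Y box and 9.14% the X2 box core. A match describes letters and is not evidence that a factor binds.

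All 4 members with reads had ratios below 0 in the SRα siRNA library, and all 4 passed the limit of a mean of 1 CPM that defines a measured gene. Over all 12747 measured genes 48.6% lay below 0 and 51.4% above it. Over the 4007 genes of at least 50 CPM, 40.1% lay below 0. Only CMTM6 was at least 1.5-fold lower, against 6.97% of measured genes. CMTM6 and B2M had counting intervals wholly below 0, as did 3.39% of measured genes. Since the members were chosen with this contrast known, nothing is read from these counts. The median log2 ratio was 0.01 over measured genes, with a standard deviation of 0.48.

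**Figure D1:**
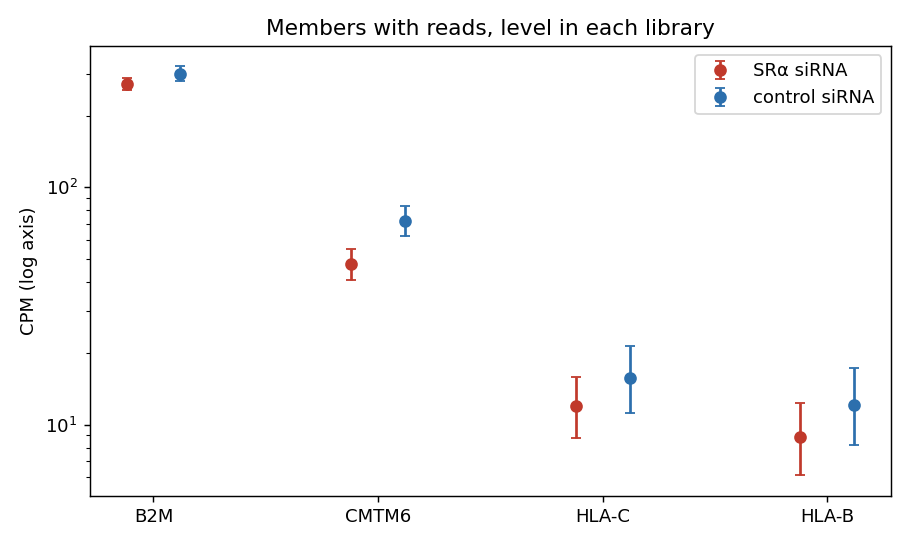
Level of the 4 members with reads, in CPM on a log axis, in the SRα siRNA library (left point of each pair) and the control siRNA library (right point), with exact 95% Poisson intervals of the counts. CMTM6 stood at 47.3 and 72.3 CPM with intervals that do not overlap, and those of HLA-B and HLA-C overlap widely.

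CMTM6 (ENSG00000091317.7, chromosome 3) was the member with the lowest ratio. It had 182 reads in the SRα siRNA library and 179 in the shallower control siRNA library. Scaled, these were 47.3 CPM (40.7 to 54.7) in the SRα siRNA library, against 72.3 CPM (62.1 to 83.7) in the control siRNA library. The ratio was 0.655 (0.529 to 0.809), a log2 ratio of -0.61 (-0.92 to -0.31). Of the 4007 genes of at least 50 CPM it ranked 2 from the lowest, after SRPRA, and only these 2 (0.0499%) were 1.5-fold lower. Over all 12747 measured genes it ranked 800 from the lowest. CMTM6 was chosen with its low ratio known, so its ranks are descriptions. It was also the lowest of 2200 genes within 1.5-fold of its mean level, whose median log2 ratio was 0.02 and standard deviation 0.19. With the deeper library thinned to the same total the log2 ratio was -0.54, and no member then reached 1.5-fold.

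The genes most like CMTM6 in level and ratio, over these 2 libraries only, were SNX17, ADIPOR1, AVL9, TTC39C and IGFBP2. They were the nearest in log2 ratio among 2180 named genes within 1.5-fold of its mean CPM. SNX17, an endosomal sorting nexin, had 48.6 CPM in the SRα siRNA library and 72.7 CPM in the control siRNA library (log2 ratio -0.58). ADIPOR1, an adiponectin receptor, had 36.1 and 52.9 CPM in that order (-0.55). AVL9, whose yeast counterpart acts in late secretory transport, had -0.55, TTC39C had -0.54, and the secreted IGFBP2 had -0.52. All 5 intervals overlap that of CMTM6.

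CMTM6 belongs to a family of chemokine-like membrane proteins encoded in clusters on chromosomes 3 and 16, apart from CMTM5 on chromosome 14. Of 8 other family members, 5 were measured and CMTM1, CMTM2 and CMTM5 were listed at 0. The 2 others on chromosome 3 had ratios above 0: CMTM7 had 111 reads (28.8 CPM) in the SRα siRNA library and 57 (23.0 CPM) in the control siRNA library, a log2 ratio of 0.32 (-0.15 to 0.81). CMTM8 had 64 reads against 36, a log2 ratio of 0.19 (-0.42 to 0.83). Both intervals include 0, and that of CMTM7 does not overlap that of CMTM6.

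On chromosome 16 the closest relative of CMTM6, CMTM4, which can also protect PD-L1, had 13 reads (3.38 CPM) in the SRα siRNA library and 16 (6.46 CPM) in the control siRNA library. Its log2 ratio was -0.90 (-2.11 to 0.21), so a difference was not detectable at this depth. CKLF, the chemokine-like founder of the family, had 39 reads (10.1 CPM) in the SRα siRNA library and 46 (18.6 CPM) in the control siRNA library, a log2 ratio of -0.86 (-1.53 to -0.23). A readthrough entry shares exons with CKLF. Reads classed as ambiguous were listed apart from gene reads, 203076 in the SRα siRNA library and 129676 in the control siRNA library. How many reads of CKLF were left out in this way is uncertain. CMTM3 had 21 reads against 14 (-0.05). The median of the 5 was -0.05.

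**Figure D2:**
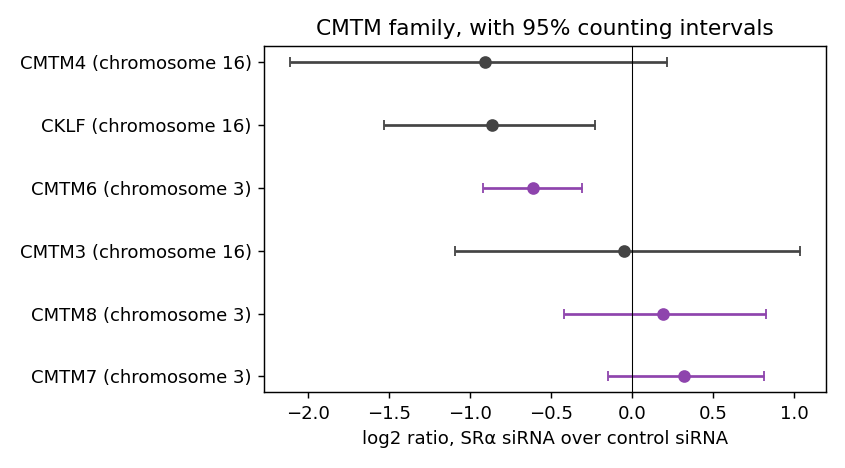
Log2 ratio of the SRα siRNA over the control siRNA library for CMTM6 and the 5 other measured family members, with 95% counting intervals, genes of chromosome 3 in purple and of chromosome 16 in grey. CMTM4, CKLF and CMTM6 lie lowest, and CMTM8 and CMTM7, next to CMTM6 in the genome, lie above 0.

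The neighbours of CMTM6 on chromosome 3 did not have ratios as low. Of the 10 nearest protein-coding genes, 8 were measured, 2 lower and 6 higher, against 48.6% and 51.4% of all measured genes. DYNC1LI1, a dynein light intermediate chain and the next gene, had 200 CPM in the SRα siRNA library and 187 CPM in the control siRNA library (log2 ratio 0.09, -0.08 to 0.26). CNOT10, of the CCR4-NOT deadenylase, had 0.05 (-0.17 to 0.27).

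B2M (ENSG00000166710.13, chromosome 15), the light chain shared by all class I molecules, had the most reads of any member. It had 1051 reads in the SRα siRNA library and 745 in the control siRNA library. These were 273 CPM (257 to 290) in the SRα siRNA library and 301 CPM (280 to 323) in the control siRNA library, a log2 ratio of -0.14 (-0.28 to -0.0021). The interval ended just below 0 and included 0 with DESeq2 size factors (-0.27 to 0.0028), so its position depends on the scaling. B2M was 39 from the lowest of 731 genes within 1.5-fold of its level, whose median log2 ratio was 0.05.

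HLA-B (ENSG00000234745.5, chromosome 6) had 34 reads in the SRα siRNA library and 30 in the control siRNA library, or 8.84 and 12.1 CPM. Its log2 ratio was -0.45 (-1.21 to 0.30). HLA-C (ENSG00000204525.10, chromosome 6) had 46 reads in the SRα siRNA library and 39 in the control siRNA library, or 11.95 and 15.75 CPM, a log2 ratio of -0.39 (-1.05 to 0.26). Neither difference was detectable at this depth. HLA-B at 237 from the lowest of 1931 genes of similar level, and HLA-C at 259 of 2025, were not near the extremes.

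The heavy chain genes are alike in coding sequence. Over aligned coding bases of GENCODE 29 transcripts HLA-B and HLA-C were 92.5% identical, HLA-B and HLA-E 86.8%, and HLA-C and HLA-E 86.3%. Of 659 stretches of 60 bases within 1 exon, HLA-B and HLA-C were identical in 7 and had a median of 3 differences. The first pair below is the most alike, in exon 3, which encodes part of the peptide groove (chr6:31356307-31356366 for HLA-B and chr6:31271213-31271272 for HLA-C, GRCh38, minus strand), and the second is the least alike, in exon 2, with the 8 differing bases in capitals (chr6:31356753-31356812 and chr6:31271664-31271723).
HLA-B, exon 3: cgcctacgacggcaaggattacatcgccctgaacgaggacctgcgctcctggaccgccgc
HLA-C, exon 3: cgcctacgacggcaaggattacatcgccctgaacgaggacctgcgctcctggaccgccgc
HLA-B, exon 2: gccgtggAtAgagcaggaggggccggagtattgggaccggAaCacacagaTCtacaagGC
HLA-C, exon 2: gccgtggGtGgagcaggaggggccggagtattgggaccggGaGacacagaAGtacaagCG

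A read from the first stretch fits both genes and one from the second fits a single gene, and only uniquely aligned reads were counted. Of all 50-base windows of the transcript, 2.54% in HLA-B, 6.79% in HLA-C and 5.76% in HLA-E occur in a transcript of another gene that does not overlap it. The share was 1.07% in TAP1 and 1.27% in TAP2. It was 0 in TAPBP, B2M, CMTM6 and CD274. Only transcripts of the primary assembly were searched.

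Per kb of annotated exon, and by the reads that were counted, B2M stood highest, then CMTM6, HLA-C and HLA-B, in both libraries. The levels of HLA-B and HLA-C may leave out most of their reads, as described below, so their place in this order is uncertain. In the SRα siRNA library the levels were 44.9, 10.7, 4.77 and 2.90 CPM per kb in that order of genes. In the control siRNA library they were 49.5, 16.4, 6.28 and 3.97 CPM per kb. HLA-C was 1.65 times HLA-B in the SRα siRNA library (1.03 to 2.65) and 1.58 times in the control siRNA library (0.96 to 2.64), an exact interval for counting error that excludes 1 in the SRα siRNA library alone. By the length of the longest transcript both intervals include 1, with 1.11 times in the SRα siRNA library (0.70 to 1.79) and 1.07 times in the control siRNA library (0.65 to 1.78). B2M was 4.19 times CMTM6 in the SRα siRNA library (3.58 to 4.93) and 3.02 times in the control siRNA library (2.56 to 3.58), and both factors rest on the length used.

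HLA-E, TAP1, TAP2 and TAPBP were listed at 0 in both libraries, and so was nearly every gene around them. From HLA-F to TAPBP, in the gene order of GENCODE 29, chromosome 6 has 148 protein-coding genes among the IDs listed, and 137 of them (92.6%) were at 0 in both libraries, making this a blank segment. The share was 27.1% over the other 846 protein-coding genes of the chromosome, 31.8% over the 148 before the segment, 27% over the 148 after it, and 29.8% over all 19263 protein-coding genes. The whole segment held 144 reads in the SRα siRNA library and 123 in the control siRNA library, while the 148 genes after it held 20800 and 13026.

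The genes at 0 included ones that every cell uses. VARS1, the only cytosolic valyl-tRNA synthetase, was at 0 in both libraries. The 19 other cytosolic synthetase genes looked at had 341 to 3449 reads in the SRα siRNA library and 265 to 2141 in the control siRNA library. The chaperone BAG6, the kinase subunit CSNK2B, the splicing helicase DDX39B, the chromatin readers and regulators BRD2 and DAXX, the tubulin TUBB and the ribosomal protein gene RPS18 were also at 0. In BAG6, CSNK2B, BRD2 and DAXX, no 50-base window of the transcript occurs elsewhere among annotated transcripts. In CLIC1, also at 0 in both libraries, 4.3% of windows do. VARS1, DDX39B, TUBB and RPS18 were not searched. Only transcripts of the primary assembly were looked at, so copies outside it could not be found. These genes were named after their values were seen.

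**Figure D3:**
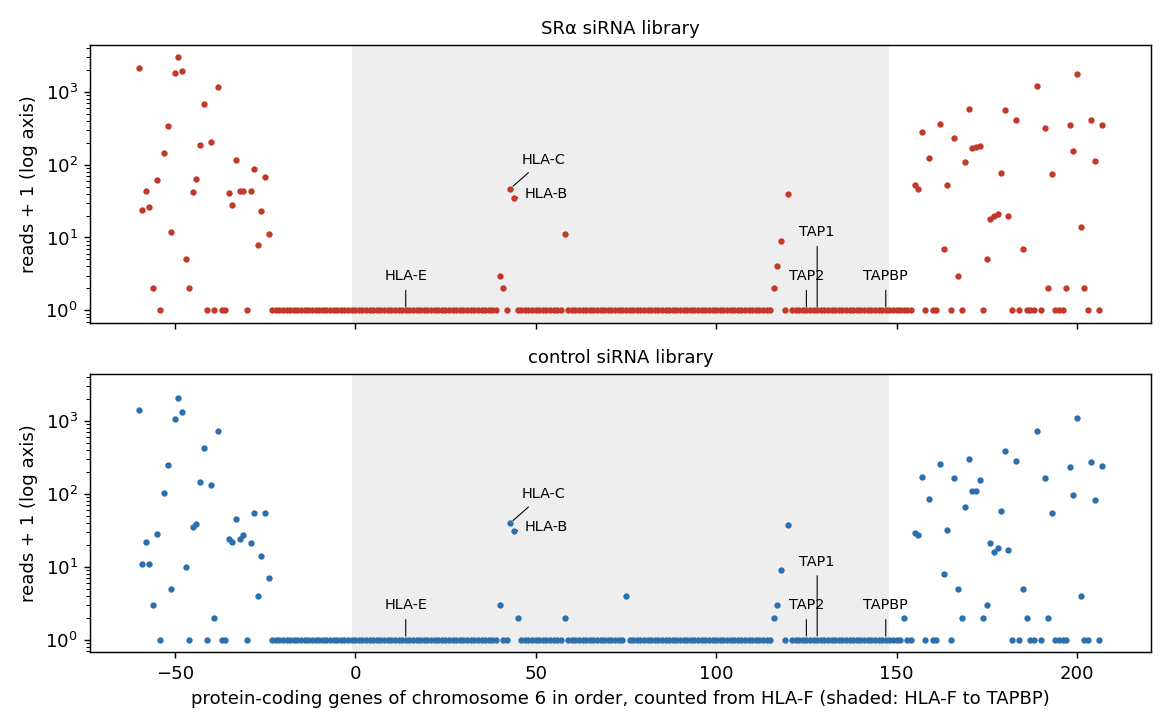
Reads plus 1 (vertical, log axis) of protein-coding genes in their order along chromosome 6 (horizontal, counted from HLA-F) in the SRα siRNA library (top) and the control siRNA library (bottom), with the stretch from HLA-F to TAPBP shaded and the 6 members there named. Nearly all genes of the shaded stretch sit at the bottom line, 137 of 148 at 0 in both libraries, and HLA-B and HLA-C are among the few above it.

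A 0 for HLA-E, TAP1, TAP2 or TAPBP is therefore no measure of absence, and no limit on their level is given. The hg19 assembly named in the submitters' processing notes is distributed with alternate copies of this segment. Whether the copies were in the index used is not given in the sources used here, and their part in the zeros was not tested. The counts of HLA-B and HLA-C come from the same segment, so their levels may leave out most of their reads, and their ratios rest on whichever reads were kept.

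A class II gene of the same segment, HLA-DQB1, had about as many reads as HLA-B and HLA-C. HLA-DQB1 had 39 reads in the SRα siRNA library and 36 in the control siRNA library, and HLA-DRB1 had 8 in each, although CIITA, the master regulator of class II, and CD74, their invariant chain, were at 0. HLA-B and HLA-C together held 55.6% of the segment's reads in the SRα siRNA library and 56.1% in the control siRNA library. Their summed log2 ratio was -0.42 (-0.91 to 0.06), and that of the rest of the segment was -0.39 (-0.94 to 0.16). Of the 64 and 54 reads of that rest, 51 and 47 were of the class II genes HLA-DQB1, HLA-DRB1, HLA-DRB5 and HLA-DRA. Genes of the segment that are not HLA genes had 13 reads in the SRα siRNA library and 7 in the control siRNA library, with a summed log2 ratio of 0.24 (-1.17 to 1.82). Alignments that were not unique numbered 3.70 per gene read in the SRα siRNA library and 4.43 in the control siRNA library, and the part of this difference in the ratios was not tested.

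CD274, on chromosome 9, was at 0 in both libraries outside any such stretch. The 3 counts that a 0 allows correspond to 0.780 CPM in the SRα siRNA library and 1.21 CPM in the control siRNA library. Of the 10 protein-coding genes on either side of it, 6 of 20 were at 0, near the overall share, and PDCD1LG2, encoding the related ligand PD-L2, was among those at 0. The nearby genes JAK2 and ERMP1 had 21 and 238 reads in the SRα siRNA library, against 14 and 153 in the control siRNA library. No PD-L1 message was thus detectable at this depth beside the lower CMTM6.

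The machinery that makes and loads peptides had ratios near 0. Of 22 genes in the list, 18 were measured, 8 lower and 10 higher, against 48.6% and 51.4% of measured genes. Their median log2 ratio was 0.01. Of their intervals, 2 lay wholly below 0 and 2 wholly above it, against 3.39% and 5.46% of measured genes. The standard catalytic proteasome subunits were abundant, with PSMB5 at 251 CPM in the SRα siRNA library and 256 CPM in the control siRNA library, and PSMB7 at 408 and 369 CPM (log2 ratio 0.14, 0.02 to 0.26). Their interferon-induced replacements were scarce or in the blank segment, with PSMB10 at 7 and 6 reads, and PSMB8 and PSMB9, neighbours of TAP1 and TAP2, at 0.

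By the naming rule, the lowest of this list were THOP1, a peptide-degrading peptidase, at -0.22 (-0.44 to 0.01), and UGGT1, the glucosyltransferase that returns misfolded glycoproteins to calreticulin, at -0.17 (-0.31 to -0.03). The highest were BLMH, a cytosolic peptidase, at 0.23 (0.05 to 0.41), and ERAP1, which trims peptides to length in the endoplasmic reticulum, at 0.16 (-0.44 to 0.78). Of tapasin's partners, CALR had -0.08 (-0.11 to -0.05) and PDIA3 had -0.08 (-0.17 to 0.01). No measured gene of this list was 1.5-fold lower or higher.

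Of 15 other class I and class I-like molecules, 6 were measured, 5 lower and 1 higher, against 48.6% of measured genes lower, with a median log2 ratio of -0.40. Of these, 1 was at least 1.5-fold lower and 1 had an interval wholly below 0, against 6.97% and 3.39% of measured genes. ULBP3, a ligand of the natural killer receptor NKG2D encoded on chromosome 6 outside the blank segment, had 87 reads (22.6 CPM) in the SRα siRNA library and 78 (31.5 CPM) in the control siRNA library. Its log2 ratio was -0.48 (-0.94 to -0.02), the only interval of this list wholly below 0. MR1, which presents vitamin metabolites, had 15 reads against 18 (-0.87, -1.99 to 0.17), and FCGRT, the heavy chain of the neonatal Fc receptor, had 30 against 26 (-0.42, -1.24 to 0.39). PROCR, the protein C receptor, had 67.8 CPM in the SRα siRNA library and 67.4 CPM in the control siRNA library (0.01). HLA-F, HLA-G and MICB, all in the blank segment, were at 0, and MICA had no read in the SRα siRNA library and 1 in the control siRNA library.

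**Figure D4:**
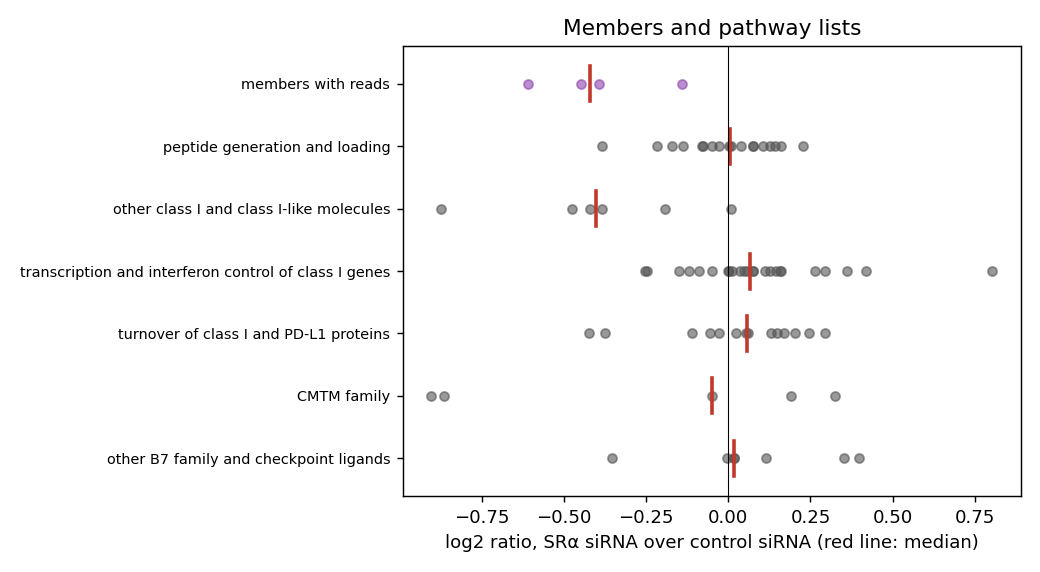
Log2 ratio of the SRα siRNA over the control siRNA library for each measured gene (points) of the members and of 6 pathway lists, with the median of each row as a red line. The class I-like list has its median at -0.40, and the lists for peptide loading (0.01), transcription (0.07), turnover (0.06), the CMTM family (-0.05) and B7 ligands (0.02) have theirs near 0.

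Of 26 regulators of class I transcription, 24 were measured, 7 lower and 17 higher, against 51.4% of measured genes higher, with a median log2 ratio of 0.07. Of their intervals 1 lay wholly above 0 and 0 below, against 5.46% and 3.39% of measured genes. That 1 was EZH2, the methyltransferase of Polycomb complex 2, which silences class I pathway genes in some tumours, with 162 CPM in the SRα siRNA library and 135 CPM in the control siRNA library (0.26, 0.07 to 0.46). Its partners EED and SUZ12 had 0.30 (-0.01 to 0.61) and 0.11 (-0.18 to 0.41). NLRC5, the class I transactivator, had 1 read in the SRα siRNA library and 0 in the control siRNA library. IRF1, an interferon-induced activator, had 33 reads against 12 (0.80, -0.17 to 1.91), the only gene of this list 1.5-fold higher, as were 6.55% of measured genes, and STAT2 had 0.36 (-0.17 to 0.91). The lowest were the kinase TYK2 at -0.25 (-0.85 to 0.35) and STAT3 at -0.25 (-0.54 to 0.04).

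Of 15 factors that control the turnover of class I and PD-L1 proteins, 14 were measured, 5 lower and 9 higher. Among all measured genes 48.6% were lower and 51.4% higher. The median log2 ratio of the list was 0.06, and no interval excluded 0. TMEM127 and SUSD6, which act together to send class I molecules for degradation, had -0.42 (-0.96 to 0.10) and 0.29 (-0.76 to 1.44). SPPL3, a protease whose targets shape the glycans around class I, had -0.37 (-0.80 to 0.05), and GSK3B, a kinase that marks PD-L1 for degradation, had 0.25 (-0.03 to 0.53).

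Of 15 other checkpoint ligands and relatives, 7 were measured, 2 lower and 5 higher, against 48.6% and 51.4% of measured genes. Their median log2 ratio was 0.02, and no interval excluded 0. CD276 (B7-H3) had 32.2 CPM in the SRα siRNA library and 41.2 CPM in the control siRNA library (-0.35, -0.74 to 0.04), and NECTIN2 had 55.6 and 55.7 CPM in the same order. CD58, an adhesion ligand that also binds CMTM6, had 82 reads against 40 (0.40, -0.16 to 0.98), and ICOSLG had 22 against 11 (0.35, -0.74 to 1.56).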

How the data were processed

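Members, lists and tests were chosen with earlier results of these data known. Some genes of these lists are not reported here. Reads were processed by the authors with cutadapt and STAR 2.5.2b on hg19, per the submitters' processing notes. The authors deposited raw read counts, 1 per Ensembl gene ID. How reads were counted, with which annotation and whether by strand is not given in the sources used here, so reads of overlapping or antisense genes may be mixed. Alignments that were not unique made up 76.5% of entries in the SRα siRNA library and 79.6% in the control siRNA library and were not assigned to genes.

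Libraries were scaled with TMM factors (edgeR 4.0.16, R 4.3.3; effective sizes 3847820 and 2476276). Log2 ratios use a prior count of 0.5. Ratio intervals are exact 95% binomial (Clopper-Pearson) intervals of the 2 counts given their sum, level intervals are exact Poisson, and the procedure was tested on simulated data. Reads carry no molecular identifiers, so intervals and the floor of 3 counts cover counting error only. Measured means a mean of at least 1 CPM.

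Symbols came from a gene name table for 51996 IDs and from GENCODE 29 for 342. GENCODE 29 (GRCh38) gave exon lengths, gene order and coding sequence, and none of its coordinates was used with the hg19 counts. Named genes are all members, SRPRA, the 2 highest and 2 lowest of each list with a mean of at least 5 CPM, all measured CMTM genes and the 5 genes most like CMTM6. Other list genes (among them CALR, PDIA3, PSMB5, PSMB7, PSMB8, PSMB9, PSMB10, EZH2, EED, SUZ12 and NLRC5), class II genes and neighbours were named after their values were seen. Alternatives were upper quartile factors, size factors of DESeq2 1.42.0, library totals, totals without mitochondrially encoded and the 10 most-read genes, thinning, a prior count of 2, sums over gene IDs, other filters and other lengths. The ratio of HLA-C to HLA-B per length was added after seeing the data, in place of the planned reading of whether their intervals overlap. Python 3.11.15, pandas 2.3.3, scipy 1.17.1, Biopython 1.88 and matplotlib 3.10.9 were used.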

Additional observations from a re-analysis of the deposited data

How the results depend on the processing

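No paired analysis was possible because each group has 1 library, and no replicate could be left out. Over 8 settings the log2 ratio of CMTM6 lay between -0.65 and -0.54, that of B2M between -0.18 and -0.11, that of HLA-C between -0.44 and -0.38, that of HLA-B between -0.48 and -0.22, and that of SRPRA between -0.85 and -0.77, each within its main counting interval. After thinning, 0 members were at least 1.5-fold lower, against 1. List medians near 0 changed side: that of the CMTM list ran from -0.08 to 0.13 (above 0 after thinning and with 5 CPM required), that of the B7 list from -0.02 to 0.07 and that of peptide loading from -0.03 to 0.03.

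Over all genes, 328 were at least 2-fold lower, and 178 with a prior count of 2. With no filter 2872 were at least 2-fold higher and 2029 lower, 3594 at least 1.5-fold higher and 2590 lower. With a mean of 5 CPM required these were 32, 30, 251 and 258, since few genes of low count remain. By the longest transcript B2M was 9.28 times CMTM6 in the SRα siRNA library and 6.69 times in the control siRNA library, and with no length 5.77 and 4.16 times. The other 140 values moved by less than their intervals, or 1.5 times for counts. PSMB7's interval included 0 with library totals (-0.01 to 0.23). At the depth of HLA-B and HLA-C, differences of the sizes measured could not be told from counting error.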

Other observations

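The blank stretch of chromosome 6 is wider than the span from HLA-F to TAPBP. Between ZSCAN23 and BAK1, limits set after the values were seen, 166 of 178 protein-coding genes (93.3%) were listed at 0 in both libraries. Beyond these limits reads resumed, with BAK1 at 52 reads in the SRα siRNA library and 28 in the control siRNA library and UQCC2 at 282 and 169.

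Stretches of chromosomes 4 and 17 were looked at because hg19 is distributed with alternate copies of them too. The part of such copies in their counts was not tested. On chromosome 4, YTHDC1, a widely expressed reader of methylated adenosine in RNA, was at 0 in both libraries, as were 9 of the 10 protein-coding genes from YTHDC1 to UGT2B4, although the UGT2B genes are mainly liver genes. On chromosome 17, PLEKHM1 was at 0 in both libraries, and KANSL1, a chromatin regulator, had 5 reads in the SRα siRNA library and 1 in the control siRNA library. These places were looked at after the chromosome 6 values were seen.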
